A study of Homo sapiens with 12 samples.

Results

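The transcripts described here were those of ID1, ID2, ID3 and MSC, which encode inhibitors of E proteins, and of TCF4 and TCF12, which encode 2 of the E proteins that they act on. The 6 genes were chosen by name from a table of 26210 gene symbols, all 6 were found, and all 6 were among the 14679 genes with at least 1 FPKM (fragments per kilobase of transcript, scaled to the size of the library) in at least 2 libraries. MSC met that minimum through the Hodgkin lymphoma libraries alone. Total RNA was sequenced in duplicate from 6 groups, 12 libraries in all. L428, L1236 and KM-H2 are lines of classical Hodgkin lymphoma (HL), a B cell tumour whose malignant cells have lost most of the B cell programme. Namalwa, a Burkitt's lymphoma line, and Reh, a B cell precursor leukaemia line, were the controls. Reh_PMA was Reh given 2 ng/ml of PMA (phorbol myristate acetate), an agent that activates protein kinase C, and the other 5 groups were untreated. The labels do not give the length of the PMA exposure for these libraries. The HL lines were grown in IMDM and the control lines in RPMI, so that medium and lymphoma type cannot be told apart. Each group was 1 cell line, so that 3 HL lines stood against 2 control lines, and nothing in the labels says that duplicates came from separate cultures. The deposited columns number the duplicates 0 and 1, and these numbers name the libraries below.

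E proteins are basic helix-loop-helix (bHLH) transcription factors. They bind E-box sequences as pairs and switch on the genes of early B cells. ID proteins have the helix-loop-helix with which they pair with E proteins, but lack the basic region that holds DNA, so the pair cannot bind. MSC (musculin, also called ABF-1) keeps its basic region and represses as a partner of E proteins. In lymphocytes TCF3 (E2A), TCF4 (E2-2) and TCF12 (HEB) are the E proteins, and their balance with ID proteins is known to matter for lineage choice.

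Some libraries stood apart. In L428 library 1, L1236 library 1 and both Reh_PMA libraries the ribosomal protein gene RPS27 was listed at 0.357 to 2.75 FPKM, against 3981 to 10813 FPKM in the other 8. SNORD95 was above 0 in those same 4 libraries and in KM-H2 library 1 and at 0 in the remainder. The kind of library and PMA treatment cannot be told apart, since both treated libraries and neither untreated Reh library were of the first kind. As a gene that every cell uses can be listed near 0 here, a value of 0 is given as listed and not as absence. All 5 HL markers tested (TNFRSF8, CCL17, FSCN1, IRF4 and TRAF1) were higher in each HL line than in the controls, and all 5 B lineage markers were lower in each. The filter fixed 5 of these 10 directions, since TNFRSF8 and CCL17 passed it through HL libraries alone and CD79A, CD79B and MS4A1 only with the other libraries. In single HL lines 22.9% to 24.2% of all genes were higher and 22.5% to 23.2% lower. Of 4 T cell markers CD3D alone passed the filter, at 13.5 and 22.5 FPKM in KM-H2 and 0 in every other library. Of 3 myeloid markers tested, 1 was higher in L428, 1 lower in L1236, and 2 higher and 1 lower in KM-H2. Of all genes 46.9%, 45.4% and 47.1% passed in these lines. CD14 passed the filter through the KM-H2 libraries alone and MPO only with libraries outside HL. This leaves CSF1R, which was higher in L428 and KM-H2. With PMA, CSF1R was higher (11.8 and 11.2 FPKM against 0.285 and 0.202 FPKM, adjusted p = 1e-05) and MPO lower (6.44 and 5.00 FPKM against 24.8 and 32.0 FPKM, adjusted p = 0.0359), while CD14 was at most 0.139 FPKM and LYZ at most 0.759 FPKM in Reh and Reh_PMA. The part of these in the results was not tested. Of 6 PMA response genes 5 were higher in Reh_PMA than in Reh, beside 14.7% of all genes. EGR1 was at 62.1 and 76.2 FPKM against 0.138 and 0.0349 FPKM. The read depth behind the FPKM values is unknown.

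ID1, ID2 and ID3 lie on chromosomes 20 (30193086-30194318, plus strand), 2 (8818975-8824591, plus) and 1 (23884417-23885992, minus) of GRCh37, the build of the files. ID2 overlaps the antisense gene ID2-AS1 and has a processed pseudogene, ID2B, on chromosome 3, so its reads may be shared with these. The 250 bases before each start in RefSeq (GRCh38.p14) are shown because ID2 and ID3, members of 1 family, lay on opposite sides between HL and control libraries while ID1 was not resolved, and capitals mark the E-box letters CANNTG. The windows are chr20:31605039-31605288 (plus), chr2:8681806-8682055 (plus) and chr1:23559502-23559751 (minus).
ID1: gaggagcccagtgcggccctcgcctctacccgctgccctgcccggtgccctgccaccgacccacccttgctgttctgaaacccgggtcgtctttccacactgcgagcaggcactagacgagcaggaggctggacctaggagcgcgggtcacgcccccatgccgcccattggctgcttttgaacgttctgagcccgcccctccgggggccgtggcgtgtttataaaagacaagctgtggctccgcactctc
ID2: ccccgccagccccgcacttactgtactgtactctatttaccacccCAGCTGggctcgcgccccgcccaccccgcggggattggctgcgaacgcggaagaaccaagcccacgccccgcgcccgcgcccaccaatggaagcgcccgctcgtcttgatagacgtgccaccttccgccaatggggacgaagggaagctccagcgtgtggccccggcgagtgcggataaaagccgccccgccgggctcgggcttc
ID3: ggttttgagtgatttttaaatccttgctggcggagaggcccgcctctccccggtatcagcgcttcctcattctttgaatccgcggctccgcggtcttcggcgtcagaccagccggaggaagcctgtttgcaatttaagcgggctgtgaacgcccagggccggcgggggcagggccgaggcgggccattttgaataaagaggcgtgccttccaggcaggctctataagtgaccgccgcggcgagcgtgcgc
ID2 held a single E-box, CAGCTG, from 205 to 200 bases before its start, and ID1 and ID3 held none on either strand. CANNTG occurred in 61.8% of the 35116 RefSeq promoter windows of 250 bases. The other motifs searched were the E-box form CACCTG (17.5% of windows, and itself a form of CANNTG), the AP-1 letters TGANTCA (6.57%), the EGR letters GCGGGGGCG (4.72%), the CRE letters TGACGTCA (1.65%) and GGCGCC, a SMAD element (16.4%). Each was searched on both strands and none was found in these 3 windows. The match describes letters only.

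ID2 was the main ID transcript of the HL lines and ID3 that of the control lines. ID2, an inhibitor best known for its role in innate lymphoid and natural killer cells, was listed at 42.1 and 88.4 FPKM in L428, 79.6 and 132 FPKM in L1236, and 202 and 48.6 FPKM in KM-H2. In Namalwa it was at 20.1 and 16.9 FPKM and in Reh at 8.48 and 10.3 FPKM. The lowest HL library lay above the highest control library, although the KM-H2 duplicates were further apart than those of any other line. Mean levels were 65.3 ± 32.7 FPKM in L428, 106 ± 37.2 in L1236, 125 ± 109 in KM-H2, 18.5 ± 2.28 in Namalwa and 9.38 ± 1.27 in Reh (SD, n = 2 libraries each). Averaged over lines, ID2 was 7.09-fold higher in FPKM in HL than in the controls. On the log2(FPKM + 1) scale used for all tests, which understates the change of low genes, the difference was 2.61 ± 0.41 (SE, adjusted p = 0.0884, limma with the line as the unit).

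ID3, a target of BMP signalling and of B cell receptor signals, went the other way. It was listed at 3.27 and 1.47 FPKM in L428, 2.64 and 3.79 FPKM in L1236, and 21.6 and 13.4 FPKM in KM-H2. Namalwa held 274 and 388 FPKM and Reh 154 and 182 FPKM. HL and control libraries did not overlap, and within HL both KM-H2 libraries lay above those of the other two lines. The mean over lines was 32.4-fold lower in HL, a difference of -5.23 ± 0.82 in log2(FPKM + 1) (adjusted p = 0.0869, limma by line).

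ID1 was low in every group. Its values were 2.28 and 2.38 FPKM in L428, 0.312 and 0.780 FPKM in L1236, 4.68 and 1.75 FPKM in KM-H2, 9.25 and 3.95 FPKM in Namalwa, and 1.44 and 0.297 FPKM in Reh. All HL values lay inside the range of the control values. The log2 difference was -0.39 with an interval from -2.34 to 1.56, so that neither direction was resolved (adjusted p = 0.827, limma by line). ID4, the remaining member of the family, was listed above 0 in the 2 Namalwa libraries alone (0.714 and 0.218 FPKM) and was not tested.

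**Figure D1:**
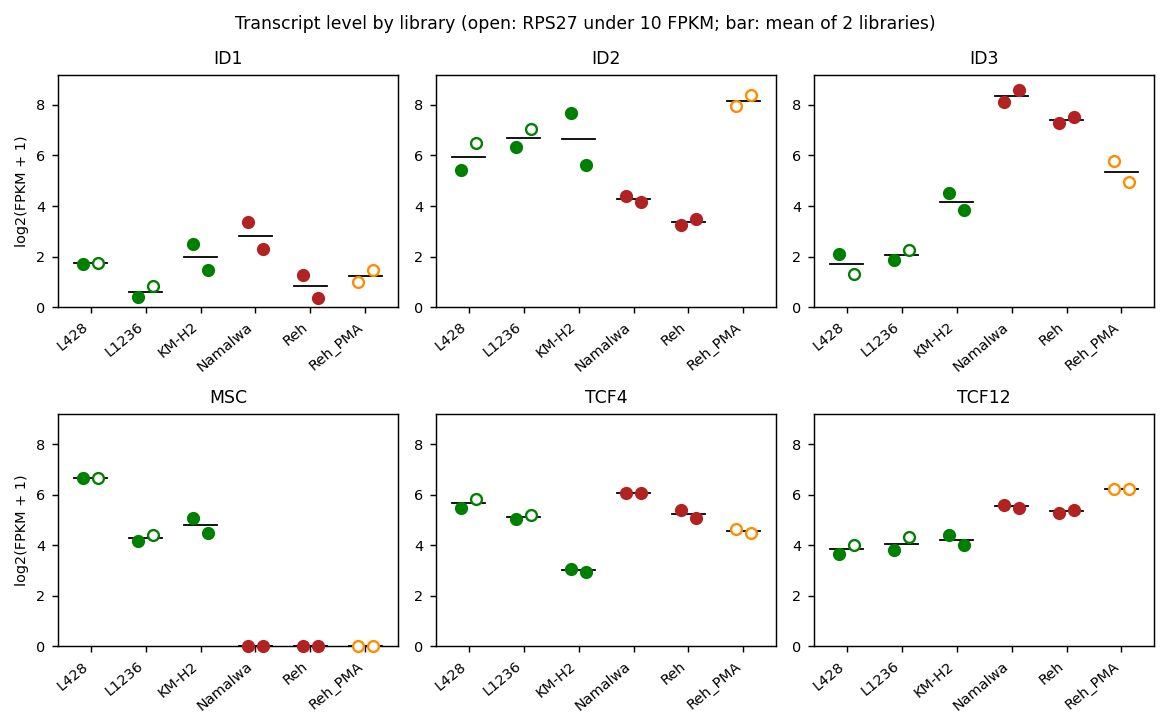
Transcript level of the 6 genes, as log2(FPKM + 1), in each library of the 6 groups (green HL, red control, orange PMA-treated Reh). Open points mark libraries with RPS27 under 10 FPKM and bars the mean of the 2 log2 values. ID2 was higher and ID3 and TCF12 were lower in all 6 HL libraries than in the 4 control libraries, and MSC was listed at 0 outside HL.

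MSC lies on the minus strand of chromosome 8 (72753795-72756647, GRCh37), inside the antisense gene MSC-AS1 on the plus strand. The library kit keeps strand, but the sources used here do not say whether the counting used it, so that reads of the 2 genes may not be separated. MSC was listed at 101 FPKM in both L428 libraries, at 16.9 and 20.1 FPKM in L1236 and at 33.1 and 21.5 FPKM in KM-H2. It was listed at 0 in all 6 libraries of Namalwa, Reh and Reh_PMA, so no fold is given. MSC was thus above 0 in every HL library and in no other. The log2 difference by line was 5.25 ± 0.77, given as a description, since the filter fixed its direction and its size depends on the pseudocount of 1 FPKM. Among the HL lines, mean MSC was 5.47-fold higher in L428 than in L1236 (adjusted p = 4.7e-05) and 3.71-fold higher than in KM-H2 (adjusted p = 0.000175, limma over libraries), in comparisons where 30.6% and 36.4% of all genes passed. L1236 and KM-H2 were not told apart, with a difference of 0.51 (interval 0.0076 to 1.01, adjusted p = 0.106).

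The E proteins behaved unlike each other. TCF12 lies on chromosome 15 (57210821-57591479, plus) and TCF4 on chromosome 18 (52889416-53332018, minus). TCF12 was at 11.6 and 15.3 FPKM in L428, 13.1 and 19.0 FPKM in L1236 and 20.2 and 15.2 FPKM in KM-H2, against 47.9 and 43.7 FPKM in Namalwa and 38.2 and 41.2 FPKM in Reh. All HL libraries were below all control libraries, and the mean over lines was 2.72-fold lower in HL (log2 difference -1.41 ± 0.28, adjusted p = 0.148, limma by line). TCF4, prominent in plasmacytoid dendritic cells and in B cells, did not divide the same way. Its values were 43.1 and 56.6 FPKM in L428 and 32.0 and 36.3 FPKM in L1236, within or near the range of Namalwa (67.1 and 66.9 FPKM) and Reh (41.7 and 33.3 FPKM). KM-H2 stood alone at 7.47 and 6.63 FPKM. The log2 difference over lines was -1.07 with an interval from -3.17 to 1.02 (adjusted p = 0.581, limma by line).

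With the line as the unit, 0 of the 6 genes passed an adjusted p of 0.05, where 80 of the 14679 genes (0.545%) did, 0.32% higher and 0.225% lower. At an unadjusted p under 0.05 the count was 4 of 6 (ID2, ID3, MSC and TCF12), against 13.5% of all genes, and 3 of 5 without MSC. The same 4 genes had HL and control libraries that did not overlap, as did 17.6% of all genes. Of these 4, ID2 and MSC were higher in HL (9.5% of all genes) and ID3 and TCF12 lower (8.06%). MSC passed the filter through its HL libraries alone, which fixed its direction, and 3 of the other 5 genes did not overlap. Taking the library as the unit gave 5 of 6 genes, but there 55.4% of all genes passed, since duplicates of a line count as separate samples. The 2 Hodgkin libraries with little RPS27 gave the same directions for these 4 genes as the other Hodgkin libraries. For ID2 their difference from the controls was 2.94 against 2.44 in log2, and for ID3 it was -6.09 against -4.80.

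Each HL line was then set against the mean of Namalwa and Reh, with all 12 libraries in 1 limma fit. These 3 comparisons share their control libraries, and their p-values measure only the spread between duplicate libraries. L428 differed in 4 of 6 genes, 2 higher (ID2 and MSC) and 2 lower (ID3 and TCF12), beside 46.9% of all genes (23.7% higher and 23.2% lower). As the filter fixed the direction of MSC, the count without it is also given, 3 of 5 in L428. In L1236 all 6 passed, 2 higher (ID2 and MSC) and 4 lower, beside 45.4% of all genes (22.9% higher, 22.5% lower), or 5 of 5 without MSC. KM-H2 differed in 5 of 6, 2 higher (ID2 and MSC) and 3 lower (ID3, TCF4 and TCF12), beside 47.1% of all genes (24.2% higher, 22.9% lower), or 4 of 5 without MSC.

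The size of the ID3 difference varied between lines. Mean ID3 FPKM was 105-fold lower than in the controls in L428, 77.6-fold lower in L1236 and 14.3-fold lower in KM-H2. The L428 fold was 76.2 by its library 0 and 170 by its library 1. Against KM-H2, ID3 was lower by a log2 difference of -2.47 ± 0.38 in L428 (adjusted p = 0.000874) and of -2.11 ± 0.38 in L1236 (adjusted p = 0.00211), beside 36.4% and 36.2% of all genes that passed. L428 and L1236 did not differ beyond their spread in ID3 (log2 difference -0.36 ± 0.38, adjusted p = 0.546). For ID2 the log2 differences from the controls were 2.13 in L428, 2.87 in L1236 and 2.82 in KM-H2, and none of the 3 pairs of HL lines differed in ID2. The KM-H2 value was 3.84 without its library 1 and 1.81 without its library 0 (adjusted p = 0.000448 and 0.0139). The largest difference among these pairs, L428 minus L1236, was -0.74 in log2 with an interval from -2.10 to 0.62.

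Not all of these calls were firm. Without L428 library 1 the ID2 difference in L428 was 1.61 in place of 2.13 in log2, with an adjusted p of 0.0951. TCF4 was 7.41-fold lower in KM-H2 than in the controls and 1.53-fold lower in L1236, while L428 differed by -0.02 in log2 (interval -0.41 to 0.37). The L1236 calls of TCF4 (-0.54, adjusted p = 0.0292) and ID1 (-1.22, adjusted p = 0.0331) were lost when either L1236 library was left out, with adjusted p of 0.0673 and 0.155 for TCF4 (-0.63 and -0.45) and of 0.0814 and 0.192 for ID1, both genes keeping their direction. Both were also lost without Namalwa library 0 (adjusted p = 0.0536 for TCF4 and 0.0824 for ID1), without Reh library 0 (0.0866 and 0.0921) and after rescaling each library to the same total (0.197 and 0.0924). TCF4 was further lost without Namalwa library 1 (adjusted p = 0.0559) and ID1 with no filter (adjusted p = 0.059). TCF12 was lower by similar amounts in each line, with log2 differences of -1.60 in L428, -1.38 in L1236 and -1.23 in KM-H2.

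**Figure D2:**
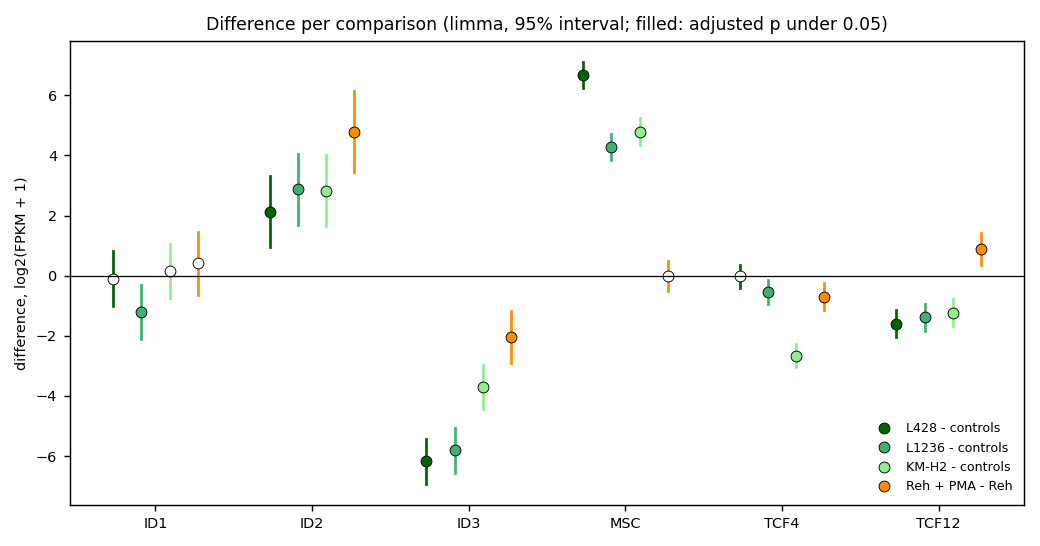
Difference in log2(FPKM + 1) for each gene: each HL line minus the mean of Namalwa and Reh (greens), and PMA-treated minus untreated Reh (orange). Lines are 95% intervals from the limma fit over 12 libraries and filled points have an adjusted p under 0.05. ID2 was above and ID3 below 0 in all 4 comparisons, whereas TCF12 was below 0 in the HL lines (-1.60 to -1.23) and above it with PMA (0.89).

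PMA-treated Reh carried the highest ID2 level of any group. ID2 was at 246 and 333 FPKM in Reh_PMA against 8.48 and 10.3 FPKM in untreated Reh, a 30.8-fold higher mean (log2 difference 4.79 ± 0.60, adjusted p = 0.000541, limma). ID3 was at 53.6 and 29.6 FPKM after PMA against 154 and 182 FPKM before, a 4.04-fold lower mean (-2.04 ± 0.38, adjusted p = 0.00407). The values of ID2, ID3, TCF4 and TCF12 did not overlap between treated and untreated libraries. This is given as a description, since groups of 2 libraries separate easily and the share over all genes was not taken. TCF12 was higher with PMA, at 74.5 FPKM in both treated libraries against 38.2 and 41.2 FPKM (0.89 ± 0.23, adjusted p = 0.0179). TCF4 was lower, at 24.1 and 21.3 FPKM against 41.7 and 33.3 FPKM (-0.69 ± 0.20, adjusted p = 0.0267).

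ID1 gave 1.02 and 1.77 FPKM with PMA and no resolved difference (0.41, interval -0.63 to 1.45), and MSC stayed listed at 0. With PMA, 4 of 6 genes passed, 2 higher and 2 lower, beside 31.8% of all genes (14.7% higher and 17.2% lower). The ID2 and ID3 calls held with any single library left out (ID2 4.58 to 5.01, ID3 -2.46 to -1.63). The TCF4 and TCF12 calls were lost without Reh library 0, without either Reh_PMA library and, for TCF12, without Reh library 1, with TCF4 between -0.85 and -0.54 and TCF12 between 0.84 and 0.94 over all libraries left out. Both treated libraries have little RPS27, so for all of these values treatment and kind of library cannot be told apart. Against the 2 Hodgkin libraries of that kind, Reh_PMA was higher by 1.39 in ID2, by 3.57 in ID3 and by 2.06 in TCF12 (log2).

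Over the 15 pairs of the 6 groups, 59 of 90 tests of these genes passed, beside 39.8% of all gene-by-pair tests (25.1% to 52.2% in single pairs). Without MSC, whose direction outside the pairs of HL lines was fixed by the filter, 48 of 75 passed. ID3 differed in 13 of 15 pairs, MSC, TCF4 and TCF12 in 11 each, ID2 in 9 and ID1 in 4. Ordered by mean log2 level, ID2 ran from Reh_PMA through L1236, KM-H2, L428 and Namalwa to Reh. Of the neighbours in that order, L428 and Namalwa differed (1.68 ± 0.60, adjusted p = 0.0499) and the other 4 steps did not pass. ID3 ran from Namalwa through Reh, Reh_PMA, KM-H2 and L1236 to L428, and the steps from Reh to L1236 all passed, while Namalwa and Reh (0.96 ± 0.38, adjusted p = 0.104) and L1236 and L428 were not told apart. TCF12 formed 3 levels: Reh_PMA, then Namalwa and Reh, then the HL lines, with both steps between levels passing (adjusted p = 0.0387 and 0.00344) and no step within them. For TCF4, KM-H2 was below Reh_PMA (adjusted p = 0.000182) and Reh_PMA below L1236 (adjusted p = 0.0405), and no neighbours among Namalwa, L428, Reh and L1236 differed. No neighbours differed in the order of ID1, which ran from Namalwa to L1236.

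FPKM is given per length, so members of a family can be summed. ID2 made up 76.2% to 96.7% of the summed ID1, ID2 and ID3 level in the 6 HL libraries, 4.12% to 6.64% in the 4 control libraries and 81.8% and 91.4% in the 2 Reh_PMA libraries. ID3 made up 90.3% to 94.9% in the controls. The sum itself overlapped, at 47.7 to 229 FPKM in HL and 164 to 409 FPKM in the controls. The E proteins summed to 92.2 to 123 FPKM in HL and 183 to 324 FPKM in the controls, with no overlap, and to 150 and 141 FPKM in Reh_PMA. TCF3, the third E protein and no member of the chosen set, entered these sums with means of 33.3 FPKM in L428, 72.8 in L1236, 68.3 in KM-H2, 200 in Namalwa, 125 in Reh and 48.2 in Reh_PMA. TCF12 supplied 10.6% to 21.9% of the E protein sum in HL, 14.5% to 22.5% in the controls, and 49.6% and 53.0% in Reh_PMA. The ratio of summed ID to summed E protein transcripts was 0.507 to 2.48 in HL, 0.739 to 1.36 in the controls, and 2.00 and 2.59 in Reh_PMA. With MSC added to the ID sum the HL range was 0.809 to 2.84, which still overlapped the controls. In bulk RNA, fewer cells of a type and less RNA per cell cannot be told apart.

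**Figure D3:**
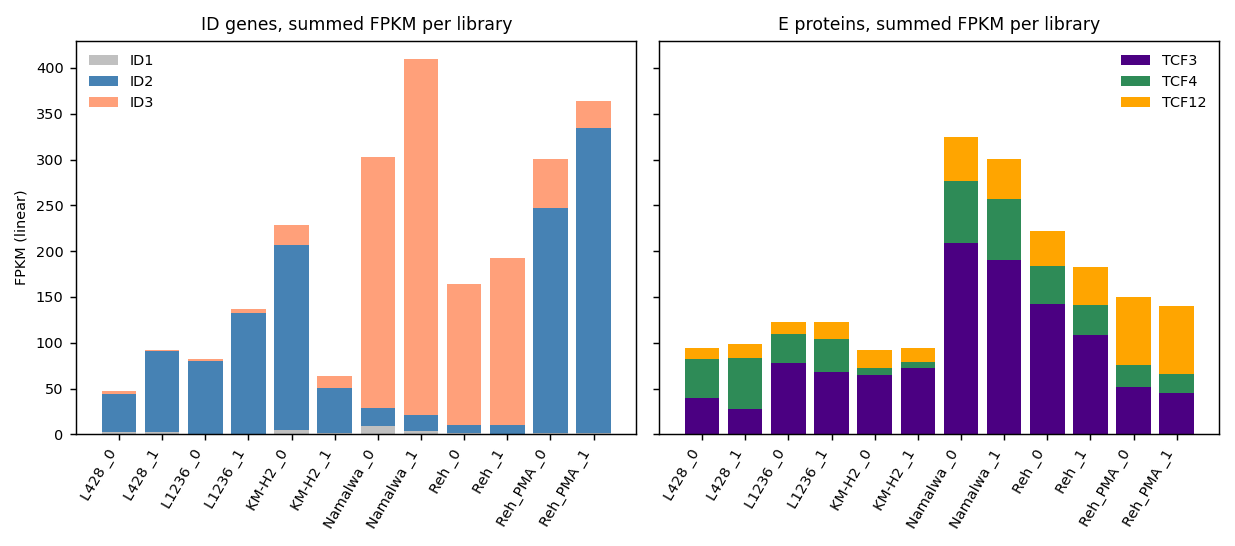
Stacked FPKM (linear scale from 0) of ID1, ID2 and ID3 on the left and of TCF3, TCF4 and TCF12 on the right, 1 bar for each of the 12 libraries. ID2 fills most of the ID bar in HL and Reh_PMA and ID3 most of it in Namalwa and Reh, and the E protein bars of HL (92.2 to 123 FPKM) are all below those of the controls (183 to 324 FPKM).

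Genes around the members were read from lists. Of 29 other bHLH genes able to pair with E proteins or of the ID family, 6 passed the filter on low values. Apart from TCF3 these were carried by 1 side, LYL1 by the control and Reh_PMA libraries, MESP1, ATOH8 and TWIST2 by HL libraries and MSGN1 by the Reh_PMA libraries, so their directions were fixed by the filter and are given as levels. TCF3 was lower in each HL line (log2 differences from -2.23 in L428 to -1.10 in L1236) and with PMA (-1.35 ± 0.23, adjusted p = 0.00278). LYL1, a bHLH factor of blood progenitors, was listed at no more than 0.092 FPKM in HL against 4.16 to 82.97 FPKM in the controls. MESP1 was at 1.07 to 8.23 FPKM in HL and at most 0.942 FPKM elsewhere. ATOH8 was at 2.60 and 2.70 FPKM in L1236. TWIST2 was at 2.66 and 4.41 FPKM in KM-H2 and MSGN1 at 1.28 and 1.52 FPKM in Reh_PMA, and both were listed at 0 in every other library.

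All 14 genes on a list of B lineage genes known to depend on E proteins or to work beside them were tested, and 8 of them passed the filter only with libraries other than HL, which fixed their direction in HL. In HL by line 0 were higher and 4 lower (CD79A, CD79B, RAG2 and VPREB3), beside 0.225% of all genes lower. The median log2 difference was -4.46 beside 0.02 over all genes. Of the 6 genes whose direction was not fixed by the filter (EBF1, PAX5, FOXO1, POU2AF1, VPREB3 and BLNK), 1 was lower and 0 were higher by line, VPREB3 at -6.00 ± 0.66 (adjusted p = 0.0425). The median over these 6 was -3.92. CD79B and CD79A, the signalling chains of the B cell receptor, differed by -8.84 and -7.48, given as a description. Singly, 14 of 14 were lower in L428, 13 of 14 in L1236 and 14 of 14 in KM-H2, beside 23.2%, 22.5% and 22.9% of all genes lower. Over the 6 genes not fixed by the filter the counts were 6, 5 and 6. The full count holds VPREB1, which was listed at 0 in Reh as in HL and was carried by Namalwa (11.4 and 7.89 FPKM). It also holds DNTT, which was listed at 0 in Namalwa as in HL and at 87.9 and 103 FPKM in Reh. The exception was POU2AF1, a B cell coactivator, which was at 19.4 and 20.3 FPKM in L1236 and between 11.7 and 70.5 FPKM in the controls. PAX5, the B lineage commitment factor, was at 19.8 and 33.8 FPKM in L1236 and at 0.446 to 1.84 FPKM in L428 and KM-H2.

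With PMA 10 of the 14 were lower and 0 higher, with a median of -2.22 beside -0.03 over all genes, of which 17.2% were lower. Of the 5 B lineage markers, 2 that are also on this list (CD79B and PAX5) were lower with PMA and 1, CD22, was higher (1.26 ± 0.27, adjusted p = 0.00769), with a median of 0.03. RAG1 and RAG2, which cut DNA in antigen receptor assembly, gave differences of -5.53 ± 0.38 (adjusted p = 1.8e-05) and -4.67 ± 0.28 (adjusted p = 8.5e-06). BLNK, a B cell receptor adaptor, gave -4.57 ± 0.24 (adjusted p = 3.9e-06), and IGLL1, a part of the surrogate light chain, -3.20 ± 0.29 (adjusted p = 9.2e-05). EBF1, PAX5 and FOXO1, factors of early B cells, gave -1.90, -1.97 and -1.51. CD79A was not among the genes that passed, at 947 and 1102 FPKM with PMA against 336 and 429 FPKM without. VPREB1 was listed at 0 in all Reh and Reh_PMA libraries.

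**Figure D4:**
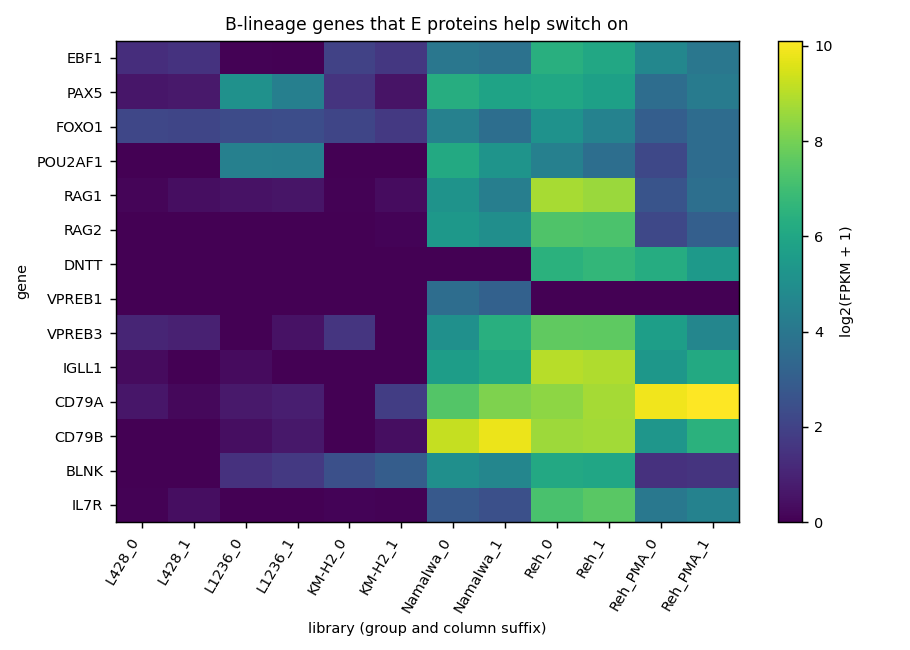
Level of 14 B lineage genes, as log2(FPKM + 1) on the colour scale, in the 12 libraries. In the HL columns PAX5 and POU2AF1 stand out in L1236 (19.4 to 33.8 FPKM), with lower levels of FOXO1 in all 6 (2.17 to 4.31 FPKM) and of BLNK in KM-H2 (4.49 and 6.93 FPKM), and with PMA RAG1, RAG2 and BLNK are lower than in untreated Reh.

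E protein cofactors were the third list, and 8 of 10 were tested. By line 0 of 8 passed. In single lines 3 were lower in L428, 2 lower and 1 higher in L1236, and 4 lower in KM-H2, and with PMA 5 were lower and 0 higher. Of all genes 46.9%, 45.4%, 47.1% and 31.8% passed in these comparisons. The filter fixed the direction of CBFA2T3 and LMO2 in HL, and of the other 6 cofactors 1 was lower in L428, 1 higher in L1236 and 2 lower in KM-H2. CBFA2T3 (ETO2), a corepressor that E proteins recruit, was at 0 to 0.457 FPKM in HL against 1.83 to 6.68 FPKM in the controls, which alone carried it past the filter, and with PMA it differed by -1.98 ± 0.19 (adjusted p = 0.000122). LMO2, a bridging protein of bHLH complexes, was at 0.547 and 2.46 FPKM with PMA against 7.17 and 9.90 FPKM in untreated Reh (-2.03). It passed the filter only with the untreated Reh libraries, so this direction, counted among the 5 lower, was fixed by the filter. The LMO2 partner LDB1 differed with PMA by -0.83 and the acetyltransferase KAT2A by -0.97. Of 22 genes of the BMP and SMAD pathway, a known input to ID genes, 18 were tested and 0 passed by line. The counts were 7 higher and 6 lower in L428, 2 and 8 in L1236, 6 and 9 in KM-H2, and 5 and 2 with PMA, beside those same shares of all genes. Of the 18, 6 (BMP2, BMP7, ENG, NOG, BMPR1B and BMP6) passed the filter through HL or other libraries alone, which fixed the direction in HL of all but BMP6. Over the other 12 the counts were 5 higher and 3 lower in L428, 1 and 3 in L1236, and 5 and 5 in KM-H2. BMP6, carried by L428 (1.06 and 1.64 FPKM), was among the 8 lower in L1236 (-0.42, adjusted p = 0.0367, limma). The ligand BMP2 was at 77.1 and 114 FPKM with PMA against 1.51 and 2.26 FPKM without (5.05 ± 0.25, adjusted p = 2.5e-06), the receptor ACVR1 differed by 2.40 ± 0.29 and the BMP antagonist NOG, which passed the filter through the untreated Reh libraries alone, by -2.44 ± 0.14. The coreceptors RGMB and ENG differed by 2.25 and -1.03, and SMURF1, a ubiquitin ligase for SMADs, by 1.22. BMP7 was at 68.7 and 75.6 FPKM in Namalwa and at most 0.137 FPKM in any other library.

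The genes with the most similar pattern were sought by Pearson correlation of the log2 level over the 6 group means, among 5673 genes whose group means spanned at least 2 on the log2 scale. With 6 points such values describe these groups only. The top gene for ID2 was DUSP5 (r = 0.990), a phosphatase of ERK kinases, with means of 25.8 FPKM in Reh_PMA, 2.94 to 7.66 in HL, 0.954 in Namalwa and 0 in Reh, followed by IER5 (r = 0.981) and DNTTIP1 (r = 0.978). ID3 was most like PCID2 (r = 0.995), ZNF790 and SLC15A3. MSC was most like C9orf64 (r = 1.00), TTC39A and TMEM71, but 113 candidates reached r over 0.95 for MSC, whose pattern is fixed by 3 groups at 0. TCF12 was most like EVI2B (r = 0.992), RRP1 and EVI2A, TCF4 most like ZFAND4 (r = 0.990), FAM162A and CENPV, and ID1 most like RHOH (r = 0.967), GALNT18 and ABCG1. Between the members, r over the same 6 means was -0.94 for MSC with TCF12, -0.89 for MSC with ID3, 0.77 for ID3 with TCF12 and -0.58 for ID2 with ID3.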

How the data were processed

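RNA was sequenced from 12 stranded, ribosomal RNA-depleted libraries of 5 cell lines. Per the labels and methods, the authors aligned reads to hg19 with TopHat2 2.0.11 and made the deposited FPKM table with Cuffnorm 2.2.1. The annotation and the scaling option are not given in the sources used here, and runs on 2 instrument types were not tied to libraries. No counts were used here, so depth is unknown and no counting interval is given. Columns were matched to groups by name. Groups came from the labels. Genes with FPKM of at least 1 in at least 2 libraries were kept (14679 of 26210), and log2(FPKM + 1) was tested with limma 3.58.1 (R 4.3.3, trended variance prior) and Benjamini-Hochberg adjustment at 0.05, in a script tested on simulated data. HL against control lines used line means (3 against 2). Single lines, PMA and pairs used 12 libraries in 6 groups. The genes named are the 6 members, TCF3 and ID4, the 3 genes most like each member, and up to 4 genes a direction with the largest differences among those passing in each list. Other list genes (among them POU2AF1, PAX5, EBF1, FOXO1, VPREB1, BMP7, CD22, and CD79A with PMA) were chosen after their values were seen. One gene of the B lineage lists is not reported here. The members and lists were chosen with earlier results of these data known. Positions are from GENCODE 44 lifted to GRCh37. Another pseudocount, no filter, other scalings, variance priors and units, a replicate block and left-out libraries and lines were tried.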

Additional observations from a re-analysis of the deposited data

Results flagged for a closer look

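The 3 HL lines, set against the same control lines, differed from each other in 7 of the 18 differences tested between lines for the 6 genes (limma over 12 libraries, adjusted over all genes). Of all genes 30.6% passed between L428 and L1236, 36.4% between L428 and KM-H2 and 36.2% between L1236 and KM-H2, so this count lies near the share of all genes and is no result about the 6. As the controls are shared, each difference equals the direct difference between 2 lines in log2(FPKM + 1).

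MSC was higher in L428 than in L1236 by 2.39 (adjusted p = 4.7e-05) and than in KM-H2 by 1.88 (adjusted p = 0.000175). ID3 was lower than in KM-H2 in both other lines, by -2.47 for L428 (adjusted p = 0.000874) and -2.11 for L1236 (adjusted p = 0.00211). TCF4 was higher than in KM-H2 by 2.65 in L428 (adjusted p = 1.1e-05) and by 2.13 in L1236 (adjusted p = 3.4e-05). ID1 differed between L1236 and KM-H2 by -1.37 (adjusted p = 0.0444), from levels under 5 FPKM. In all 7 the libraries of the lines compared did not overlap. This adds no support, since the 7 were picked by a test on these same libraries and the share over all genes was not taken. Groups of 2 libraries were too small to look for single libraries far from the rest.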

How the results depend on the processing

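Over the 6 genes and 5 comparisons, 600 values were recomputed under other settings, and 548 kept their direction and their side of the threshold, 25 lost a call, 14 gained one and 13 changed sign. ID2, ID3 and TCF12 kept their direction in each HL line under every setting tried, and ID2 and ID3 also with PMA. MSC kept its direction in each HL line too, but this tests nothing, since it was listed at 0 in every library outside HL. The 548 include the MSC values with PMA, a difference of 0 under every setting. The cause of the changes below was not tested.

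For HL against control lines, the 80 genes that passed became 11 with no filter, 8126 with the library as the unit, 483 with the cell line as a random block, 20 without the Hodgkin libraries with little RPS27 (chosen after seeing the data) and 0 to 183 with 1 line or library left out. Of the 6 genes, 0 passed, 1 (MSC, whose direction the filter fixed) with a pseudocount of 0.1 FPKM or with each library rescaled to the same total, 5 with the library as the unit and 2 (ID3 and MSC) with the random block. The share of higher calls was 58.8%, 69.6% with a pseudocount of 0.1, 72.7% with no filter, 45% without the Hodgkin libraries with little RPS27, 44.4% without L428 library 0 and 9.84% without Namalwa. With PMA, the 4675 genes became 3069 after rescaling and 2401 to 4988 with 1 library left out, and the 4 of 6 genes became 2 after rescaling (TCF4 -0.61, TCF12 0.98) and 2 to 4 with 1 library left out. TCF12 with PMA was also lost under quantile normalisation (0.68, adjusted p = 0.0587).

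The labels number replicates, but the columns carry 0 and 1. A replicate block by this column number (chosen after seeing the data) was fitted, and it gave 8423 genes and 5 of the 6 for HL against control, by library. Same-numbered libraries deviated together by more than r = 0.1 in 6 of 15 pairs of groups (r from -0.04 to 0.68), so the numbers were not taken as pairs. It changed no call for the 6 genes in single lines or with PMA.

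ID1 and TCF4 changed sign where their differences were near 0 (log2). ID1 in HL was 0.03 without L1236 and 0.61 without Namalwa. ID1 in L428 was 0.15 with a pseudocount of 0.1, 0.17 without Namalwa library 0 and 0.13 without Reh library 0. TCF4 in L428 was 0.025 under quantile normalisation, 0.17 without L428 library 0 and 0.06 without Reh library 0. ID1 in KM-H2 was -0.035 under quantile normalisation, -0.37 without KM-H2 library 0, -0.11 without Namalwa library 1 and -0.08 without Reh library 1. ID1 with PMA was -0.047 without Reh library 1. The full ranges with 1 line or library left out were -1.39 to 0.61 for ID1 in HL, -0.36 to 0.17 for ID1 and -0.21 to 0.17 for TCF4 in L428, -0.37 to 0.67 for ID1 in KM-H2 and -0.047 to 0.87 for ID1 with PMA. Rescaling moved the median of all genes in L428 to -0.19.

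Duplicates of 1 line do not sample lymphomas, and values under about 1 FPKM, such as ID1 in L1236, carry no known depth. A library left out of a pair leaves a lone library that is assumed to vary like the other groups.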
